A study of Mus musculus with 8 samples.

Results

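The 39 genes described here encode the enzymes of glycolysis and of the tricarboxylic acid (TCA) cycle, together with the carrier and the enzyme complex that join the pathways. They were chosen by gene name from the 45706 genes deposited for a series on parvalbumin-expressing (PV+) interneurons of the mouse primary somatosensory cortex (S1). Each of the 39 names matched 1 gene. All 39 genes also reached the minimum of 10 counts in at least 4 samples, as did 17862 genes in all, and were therefore tested. By role, 17 members belong to glycolysis and lactate formation, 6 to the entry of pyruvate into mitochondria and 16 to the TCA cycle.

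The samples were messenger RNAs bound to ribosomes of infected cells in mice of the genotype PvalbFlp/+;Neurod6Cre/+. All mice, in both groups, received soon after birth (postnatal day 1 in the series description, 1 to 3 for pups in the methods) a flox-fdio AAV, in which a neuronal (hSyn) promoter drives HA-RPL10a, a tagged ribosomal protein used for the pulldown, and myc-hM3Dq, a receptor engineered to respond to the drug clozapine-N-oxide (CNO). Flp recombinase in PV+ cells switches the construct on and Cre recombinase in pyramidal cells disables it. Treatment was given between postnatal day 42 and 70, the range in the methods, by 5 injections over about 48 h. Of the samples, 4 came from mice given CNO (1 mg/kg) and 4 from mice given vehicle. Every sample was pooled from 4 brains, infection was sparse, and no group lacked the receptor or the virus, so effects shared by both groups cannot be seen. The labels number the samples of a group but say nothing of separate processing, so p-values measure the spread between these samples.

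Glycolysis splits glucose into pyruvate in the cytosol and yields ATP and NADH, and lactate dehydrogenase interconverts pyruvate and lactate. The mitochondrial pyruvate carrier and the pyruvate dehydrogenase complex deliver the carbon to the TCA cycle as acetyl-CoA, and the cycle passes electrons to the respiratory chain. PV+ interneurons fire fast and for long periods, hold many mitochondria and have a high demand for ATP. Several steps are catalysed by isoenzymes, products of separate genes that differ between neurons, glia and other tissues.

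Between 44064161 and 49413273 counts were assigned to genes in each sample, so that 3 counts correspond to 0.0607 to 0.0681 CPM, counts scaled to the library total. Fos, an immediate early gene induced by neuronal activity, lay between 36.9 and 83.7 TPM (a level per transcript length with an equal sum in every sample) in the CNO samples and between 13.8 and 20.6 TPM in the vehicle samples. Vehicle replicate 1 stood apart. Its Pvalb level was 300.1 TPM, against 943 to 1050 TPM in the other 3 vehicle samples, and the summed level of 12 PV+ interneuron markers was 1247 TPM there, against 2597 to 4067 TPM in the CNO samples and up to 3239 TPM in the other vehicle samples. The 12 markers of pyramidal cells, which the design should exclude, summed to 1411 to 1947 TPM with CNO and to 1599 to 2268 TPM with vehicle, and Slc17a7, the glutamate transporter of their synaptic vesicles, was at 331 to 547 TPM. Markers of astrocytes (12 genes, 342 to 554 TPM), oligodendrocytes (10 genes, 591 to 1061 TPM), microglia (8 genes, 67.2 to 116 TPM) and endothelial cells (7 genes, 38.2 to 94.98 TPM) were also found, with Cdh5 of the endothelial list under 1 TPM. As these are pulldowns from tissue, fewer cells of a type and less RNA per cell cannot be told apart, and a member's level may include RNA from these other cells.

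Most of the enzymes were among the most abundant messages. Levels are compared between genes as TPM, which accounts for transcript length, and averaged over the 8 samples. All members except Hk2 and Suclg2 lay above 100 TPM, between 118 TPM (Fh1) and 2988 TPM (Gapdh), whereas 1894 of the 17862 genes tested reached 100 TPM. The median member was at 319 TPM and the median gene tested at 12.7 TPM. Together the 39 genes took 1.53% to 2.82% of all TPM in a sample.

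Gapdh, the dehydrogenase that makes the NADH of glycolysis, was the most abundant member and exceeded 99.96% of the genes tested. It was at 3250, 2326, 2974 and 3813 TPM in CNO replicates 1 to 4 and at 1999, 3129, 3272 and 3140 TPM in vehicle replicates 1 to 4. The groups overlapped, and the extremes of the 8 samples were vehicle replicate 1 and CNO replicate 4. Gapdh (ENSMUSG00000057666) lies on chromosome 6 from 125161715 to 125166467 (GRCm38, minus strand).

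Next in the order over both pathways were Mdh1 (2062 TPM), Aldoa and Ldhb (1822 TPM each), Pkm (1427 TPM), Eno2 (1065 TPM), Pgam1 (1008 TPM) and Tpi1 (963 TPM). Mdh1 lay above Ldhb in all 8 samples and above Aldoa in every sample except vehicle replicate 1. The order of Aldoa and Ldhb changed between samples. The SD within a group was 311 to 520 TPM for Mdh1, Aldoa and Ldhb. Eno2 and Pgam1 lay above Tpi1 in all 8 samples, and Eno2 above Pgam1 in every sample except vehicle replicate 4 (SD 143 to 241 TPM). Ldhb lay above Pkm in all 8 samples. Within glycolysis, the enzymes after the split of fructose bisphosphate, from Tpi1 to Pkm, lay between 400 TPM (Pgk1) and 2988 TPM, and the enzymes before it, Hk1, Gpi1 and the 3 phosphofructokinases, between 228 and 442 TPM. Of Pkm, which makes pyruvate, the deposited gene-level values do not separate the M1 and M2 splice forms.

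Among the genes for pyruvate entry, the subunits of the mitochondrial pyruvate carrier averaged higher than those of the dehydrogenase complex behind it. In vehicle replicate 1, however, the carrier subunit Mpc2 (219 TPM) lay under the dehydrogenase subunit Pdhb (260 TPM). Mpc1, the other carrier subunit, was the highest gene of this role. It was at 913, 602, 754 and 955 TPM in the CNO samples and at 383, 741, 742 and 757 TPM in the vehicle samples. Vehicle replicate 1 lay far under the other 7 samples. Dlat, the acetyltransferase (E2) of pyruvate dehydrogenase, was the lowest of this role, with 167, 156, 170 and 180 TPM with CNO and 137, 169, 173 and 159 TPM with vehicle, again lowest in vehicle replicate 1.

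In the TCA cycle, malate dehydrogenase stood at the top. Mdh1, the cytosolic enzyme that also serves the malate-aspartate shuttle, was at 2381, 1848, 2159 and 2572 TPM with CNO and at 1107, 2161, 2192 and 2074 TPM with vehicle. Its mitochondrial counterpart Mdh2, the enzyme of the cycle itself, was at 676 TPM on average. Suclg2, which encodes the GTP-forming β subunit of succinyl-CoA synthetase, was lowest, with 3.88, 4.23, 4.25 and 3.03 TPM with CNO and 5.19, 4.38, 5.09 and 4.19 TPM with vehicle. The 2 groups overlapped for both genes.

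**Figure D1:**
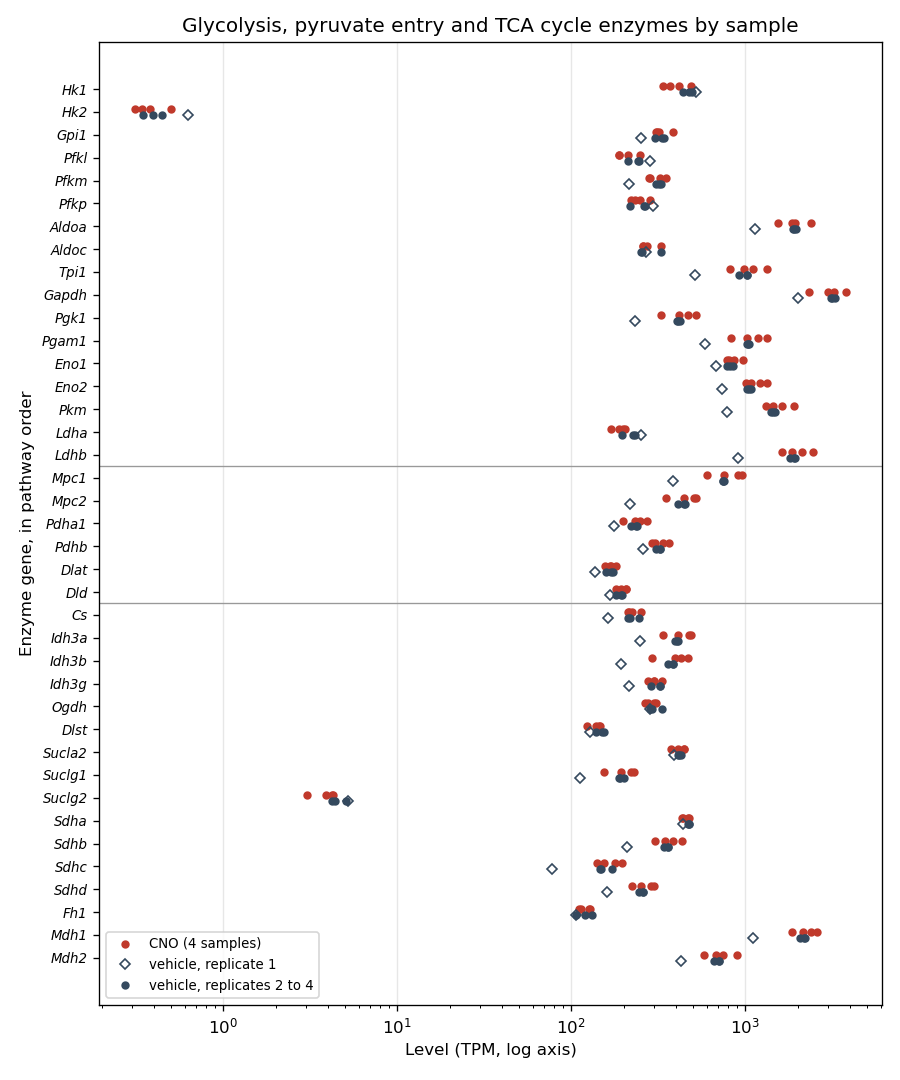
Level of each of the 39 enzymes in TPM (log axis), with 1 point per sample, vehicle replicate 1 as an open diamond, and lines between the 3 roles. Gapdh is highest at 2988 TPM on average, and Hk2 (0.418 TPM) and Suclg2 (4.28 TPM) lie far under the others.

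Subunits of 1 complex were not equally abundant. In succinate dehydrogenase, which is also complex II of the respiratory chain, the flavoprotein Sdha averaged 459 TPM, the iron-sulphur subunit Sdhb 342 TPM, and the membrane anchors Sdhd and Sdhc 248 and 151 TPM, so that Sdhc stood at 0.329 of the level of Sdha. The subunits of NAD-dependent isocitrate dehydrogenase were closer, at 397 TPM (Idh3a), 363 TPM (Idh3b) and 294 TPM (Idh3g). In pyruvate dehydrogenase the E1 subunits Pdhb and Pdha1 were at 313 and 228 TPM, and Dld, the E3 subunit that 2-oxoglutarate dehydrogenase also uses, at 190 TPM. Ogdh, the E1 of that second complex, was at 292 TPM and its E2, Dlst, at 140 TPM. Citrate synthase (Cs), the first step of the cycle, and fumarase (Fh1) were at 217 and 118 TPM.

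The isoenzymes of several steps differed strongly in level, with the same member ahead in all 8 samples. Hk1, the hexokinase typical of brain (ENSMUSG00000037012, chromosome 10 from 62268855 to 62379908, minus strand), was at 338, 488, 418 and 367 TPM with CNO and at 523, 473, 438 and 494 TPM with vehicle. Hk2, the form of muscle and fat, was at 0.499, 0.342, 0.378 and 0.310 TPM with CNO and at 0.628, 0.443, 0.347 and 0.395 TPM with vehicle. Hk1 was thus 678 to 1427 times as abundant, although the Hk2 values rest on 48.1 counts per sample on average.

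The mitochondrial β subunits of succinyl-CoA synthetase differed almost as clearly. Sucla2, the ATP-forming form, was at 443, 376, 408 and 444 TPM with CNO and at 388, 409, 415 and 425 TPM with vehicle, 74.8 to 146 times the level of Suclg2. The α subunit Suclg1, which pairs with either, was at 186 TPM.

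Of the lactate dehydrogenases, the heart-type gene Ldhb was ahead of the muscle-type gene Ldha. Ldhb was at 2105, 1624, 1851 and 2438 TPM with CNO and at 909, 1935, 1897 and 1819 TPM with vehicle. Ldha was at 169, 197, 203 and 188 TPM with CNO and at 253, 226, 195 and 232 TPM with vehicle. Vehicle replicate 1 held the lowest Ldhb and the highest Ldha, so that Ldhb exceeded Ldha 3.60 times there and up to 12.9 times in CNO replicate 4, with a median of 8.83.

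Aldoa, the widespread aldolase, was at 1929, 1547, 1845 and 2371 TPM with CNO and at 1133, 1953, 1916 and 1886 TPM with vehicle. Aldoc, the brain aldolase that is abundant in astrocytes and in some neurons, was at 272, 259, 260 and 326 TPM with CNO and at 267, 329, 250 and 256 TPM with vehicle. Aldoa was ahead by 4.24 to 7.66 times, least in vehicle replicate 1. The enolases were closer. Eno2, the neuron-specific form, was at 1210, 1014, 1079 and 1336 TPM with CNO and at 730, 1081, 1057 and 1017 TPM with vehicle, and Eno1, the widespread form, at 862, 783, 802 and 976 TPM and at 680, 852, 818 and 789 TPM in the same order. Eno2 exceeded Eno1 by 1.07 to 1.40 times.

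The 3 phosphofructokinases, which catalyse the committed step of glycolysis, were of like abundance and did not keep their order. The muscle-type gene Pfkm was at 325, 280, 282 and 350 TPM with CNO and at 214, 319, 308 and 330 TPM with vehicle. The liver-type gene Pfkl was at 189, 249, 213 and 189 TPM with CNO and at 282, 244, 211 and 243 TPM with vehicle, and the platelet-type gene Pfkp at 249, 283, 220 and 233 TPM and at 293, 266, 219 and 262 TPM. Pfkl lay under Pfkm in every sample except vehicle replicate 1, where it was 1.32 times as high. Mpc2, the partner of Mpc1 in the pyruvate carrier, was at 509, 352, 443 and 521 TPM with CNO and at 219, 449, 447 and 410 TPM with vehicle, and Mpc1 exceeded it by 1.65 to 1.84 times.

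The question the design puts to these genes is whether about 48 h of PV+ interneuron activation alter the ribosome-bound mRNA of energy metabolism. In edgeR's quasi-likelihood test no member passed an adjusted p (Benjamini-Hochberg) under 0.05 with a change above 1.5-fold and a TPM above 1. That rule called 0 of the 17862 genes (percent called, 0). Fos missed it too, at a log2 fold change of 1.93 (SE 0.21) without overlap and an adjusted p of 0.0569 in the same test. The study's own analysis of these samples lists Fos among its upregulated genes. No member reached an unadjusted p under 0.05 either, a threshold passed by 4.09% of the genes tested, 1.46% higher and 2.64% lower with CNO. Of the 1894 genes with a TPM of at least 100, 15 passed it as higher and 13 as lower. DESeq2 and edgeR's likelihood ratio test with robust dispersion, which called 10 and 17 genes, called no member and gave none an unadjusted p under 0.05. On the log2 CPM scale, the CNO and vehicle samples overlapped for all 39 members. Of the genes tested, 2.46% did not overlap (0.823% higher and 1.64% lower with CNO). Among the 1894 genes with a TPM of at least 100, 7 were higher and 16 lower without overlap. All members except Hk2 and Suclg2 are in that class, so 0 of 39 is near its share.

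The point estimates nonetheless lay mostly on one side. The log2 fold change, CNO minus vehicle, was above 0 for 34 of 39 members (87.2%) and under 0 for Hk1, Hk2, Pfkl, Ldha and Suclg2, with a median of 0.18, while it was above 0 for 50.4% of all genes tested, whose median was 0.0016. Abundant genes shared part of this shift, since 74.8% of the 1894 genes with a TPM of at least 100 lay above 0, with a median of 0.12. In limma on log2(TPM + 1), 30 members lay above 0 and 9 under it, with a median of 0.12, and Pfkp, Ogdh, Dlst and Sdha moved under 0. The medians were 0.18 for glycolysis (13 of 17 above 0), 0.19 for pyruvate entry (6 of 6) and 0.22 for the TCA cycle (15 of 16). Members were measured in the same samples and varied together, so these counts are not independent observations.

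The estimates ran from -0.22 for Suclg2 (SE 0.15, 95% interval -0.56 to 0.11, adjusted p = 0.820 in edgeR's quasi-likelihood test) to 0.40 for Mpc1 (SE 0.26, -0.17 to 0.96, adjusted p = 0.820). In glycolysis the extremes were Hk1, the first enzyme, at -0.19 (SE 0.12, -0.44 to 0.07), and Pkm, the last enzyme before pyruvate, at 0.37 (SE 0.23, -0.14 to 0.87). Sdhc had the highest estimate in the TCA cycle, 0.36 (SE 0.23, -0.14 to 0.87), and Dlat the lowest among the pyruvate entry genes, 0.17 (SE 0.13, -0.12 to 0.45). Eno2 and Ldha had the smallest unadjusted p-values, 0.0917 and 0.0923, at log2 fold changes of 0.36 (SE 0.20, -0.07 to 0.79) and -0.18 (SE 0.10, -0.39 to 0.03). Adjusted p-values of the 39 members in edgeR's quasi-likelihood test lay between 0.820 and 0.981.

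The replicate spread limits what could be seen. SEs of the members ran from 0.097 to 0.26 on the log2 scale, and the 95% interval stayed within 1.5-fold in both directions for 20 members and within 2-fold for all 39 (lowest bound 0.607-fold, highest 1.95-fold). Intervals that lie within 1.5-fold include those of Hk1, Pfkp, Ldha, Dlat and Sdha. For the other 19 members, changes larger than 1.5-fold in at least 1 direction are inside the interval. The coefficient of variation between replicates had a median of 18.2% among members and of 13.9% among all genes with a TPM of at least 100.

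**Figure D2:**
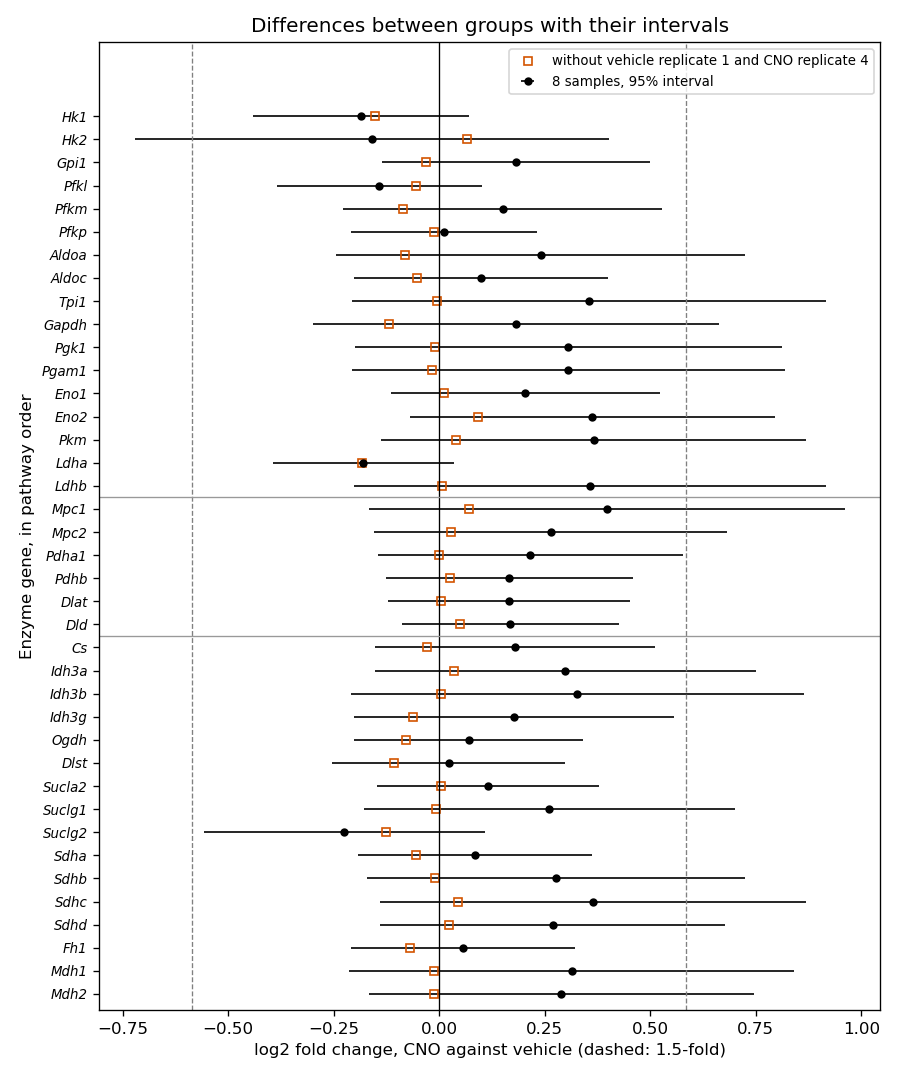
Log2 fold change (CNO minus vehicle) of each enzyme with its 95% interval from edgeR, in pathway order, with the estimates without vehicle replicate 1 and CNO replicate 4 as open squares and dashed lines at 1.5-fold. All intervals include 0, and the median moves from 0.18 with 8 samples to -0.0094 without both of these samples. They were the lowest vehicle and the highest CNO sample for 30 members, so leaving them out had to lower those estimates.

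The members moved together across single samples, with vehicle replicate 1 and CNO replicate 4 at the ends. Vehicle replicate 1 was the lowest of the 8 samples on the log2 CPM scale for 32 of 39 members (82.1%), against 30.2% of all genes tested and 67.6% of those with a TPM of at least 100. It was the highest sample for Hk1, Hk2, Pfkl and Ldha (10.3% of members, 23.9% of genes tested, 12.9% of those with a TPM of at least 100). For Pfkp, Dlst and Suclg2 it was neither the lowest nor the highest. The difference from the mean of the other vehicle samples had a median of -0.68 (log2) and ran from -1.17 for Ldhb to 0.55 for Hk2. CNO replicate 4 was the highest for 30 members (76.9%), against 22.9% of all genes tested and 56.5% of those with a TPM of at least 100. Vehicle replicate 1 was the lowest for each of these 30, and both held for 17.3% of all genes tested and for 52.8% of those with a TPM of at least 100. CNO replicate 4 was the lowest sample for Pfkl and Suclg2 (5.13% of members, 22.5% of genes tested).

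The summed level of the 39 enzymes showed the same samples at the ends. It was 25091, 20144, 22895 and 28174 TPM with CNO (24076 ± 3400, mean ± SD, n = 4) and 15264, 23710, 23567 and 23166 TPM with vehicle (21427 ± 4115, n = 4). The other 3 vehicle samples lay inside the range of the CNO samples. The sums were 15154 ± 2279 and 13533 ± 2594 TPM for glycolysis, 2188 ± 319 and 1900 ± 373 TPM for pyruvate entry and 6734 ± 827 and 5993 ± 1153 TPM for the TCA cycle, with CNO and vehicle in that order.

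PV+ interneuron and pyramidal cell markers moved with these levels. A marker index was formed in each sample by subtracting the average log2 CPM of the pyramidal cell list from that of the PV+ list. It was 1.66, 0.948, 1.46 and 2.10 in CNO replicates 1 to 4 and -0.144, 1.08, 1.5 and 1.39 in vehicle replicates 1 to 4. The index was lowest in vehicle replicate 1 and highest in CNO replicate 4, as were 30 of the members. Without vehicle replicate 1, 31 members had an estimate above 0 and the median was 0.077. Leaving out CNO replicate 4 gave 30 members above 0 and a median of 0.10. Without both samples, 15 members lay above 0 and 24 under it, with a median of -0.0094. As these were the lowest vehicle and the highest CNO sample for 30 members, leaving both out had to lower those estimates. With the marker index as a covariate, 9 lay above 0 and 30 under it, with a median of -0.026. The PV+ markers of the index themselves had a median log2 fold change of 0.41, so this covariate can take up part of a treatment effect. In each of these fits 0 members had an unadjusted p under 0.05 in edgeR's quasi-likelihood test, a threshold that 1.89% to 3.26% of all genes passed. The part of cell makeup in the shift was not tested.

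**Figure D3:**
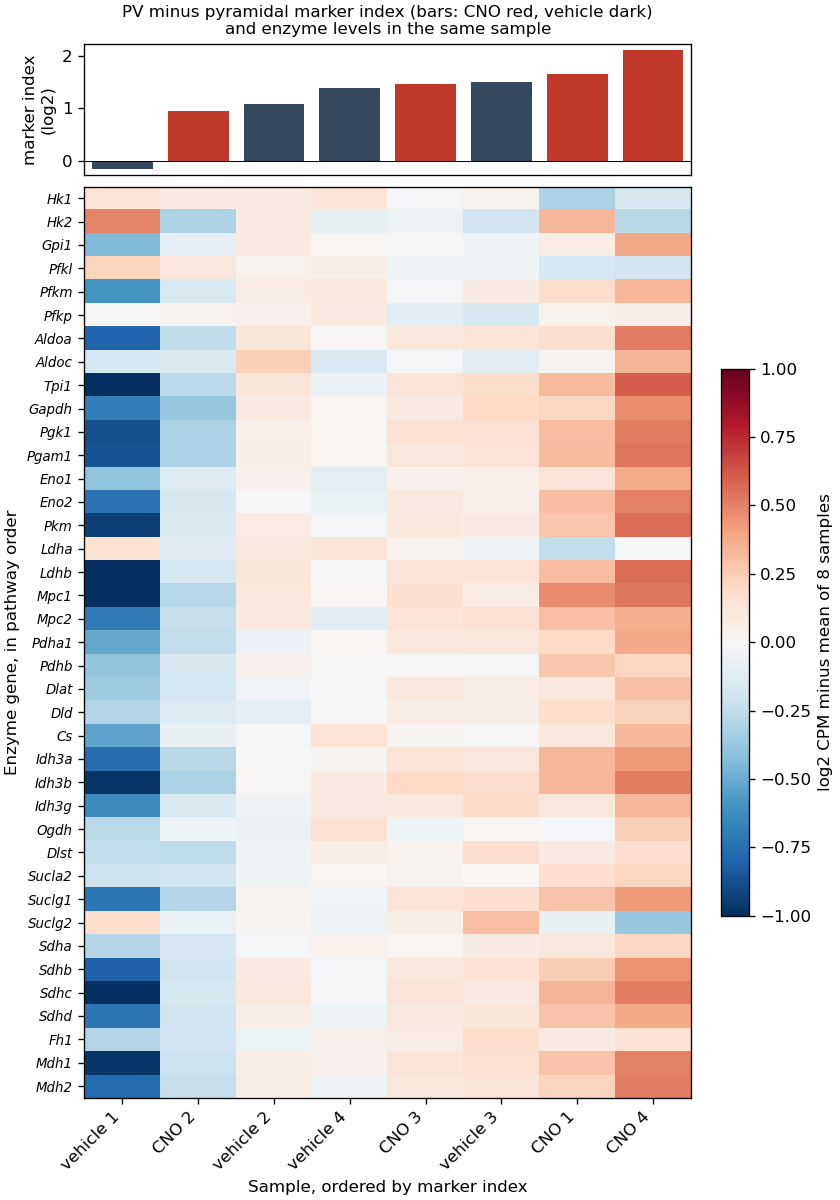
Marker index of each sample (bars, log2, CNO red and vehicle dark) above a map of each enzyme's log2 CPM minus its mean over the 8 samples, with the samples ordered by the index and the colours ending at 1 in either direction. Most enzymes are lowest in vehicle replicate 1, down to -1.08 for Ldhb, and highest in CNO replicate 4, up to 0.60 for Tpi1, whereas Hk1, Hk2, Pfkl and Ldha are highest in vehicle replicate 1.

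Within a sample, the ratio between genes needs no scaling between libraries. The log2 ratio of TPM was compared between groups for 8 pairs of isoenzymes or, for Mpc1 and Mpc2, partner subunits. All 8 are called isoenzyme ratios below. A two-sided exact permutation test over 70 assignments was used, whose smallest possible p is 0.0286, with adjustment over the 8 ratios. No ratio passed a threshold of 0.05 after adjustment. The log2 ratio of Eno1 to Eno2 was -0.489, -0.373, -0.428 and -0.452 with CNO and -0.102, -0.343, -0.369 and -0.366 with vehicle. All 4 CNO samples lay under the vehicle samples, the difference was -0.14, and the exact p was 0.0286 (adjusted p = 0.229). Without vehicle replicate 1 the difference was -0.076, and CNO replicate 2 and vehicle replicate 3 nearly touched. Other genes sharing at least 5% of the 31-base stretches of Eno1 held counts worth 18.3% of its own. This ratio leaves those counts out.

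The log2 ratio of Ldha to Ldhb was -3.64, -3.04, -3.19 and -3.69 with CNO and -1.85, -3.10, -3.28 and -2.97 with vehicle. Its means were -3.39 ± 0.33 and -2.80 ± 0.65 (SD, n = 4 each), and the difference of -0.59 did not pass (exact permutation p = 0.171, adjusted p = 0.457). The difference was -0.28 without vehicle replicate 1. The ratio of Pfkl to Pfkm had means of -0.56 ± 0.33 and -0.24 ± 0.43 (exact permutation p = 0.314, n = 4 each), and that of Pfkp to Pfkm of -0.33 ± 0.25 and -0.16 ± 0.42 (exact permutation p = 0.571).

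No difference passed for the remaining pairs. Aldoc to Aldoa was at -2.77 ± 0.13 and -2.62 ± 0.39 (exact permutation p = 0.686), Hk2 to Hk1 at -10.05 ± 0.46 and -10.09 ± 0.28 (exact permutation p = 0.857), and Mpc1 to Mpc2 at 0.81 ± 0.0525 and 0.79 ± 0.075 (exact permutation p = 0.514). Sucla2 to Suclg2 was at 6.77 ± 0.32 with CNO and 6.45 ± 0.20 with vehicle, a difference of 0.33 (exact permutation p = 0.143). Adjusted values of these 4 ratios lay between 0.457 and 0.857 over the 8 exact permutation tests.

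**Figure D4:**
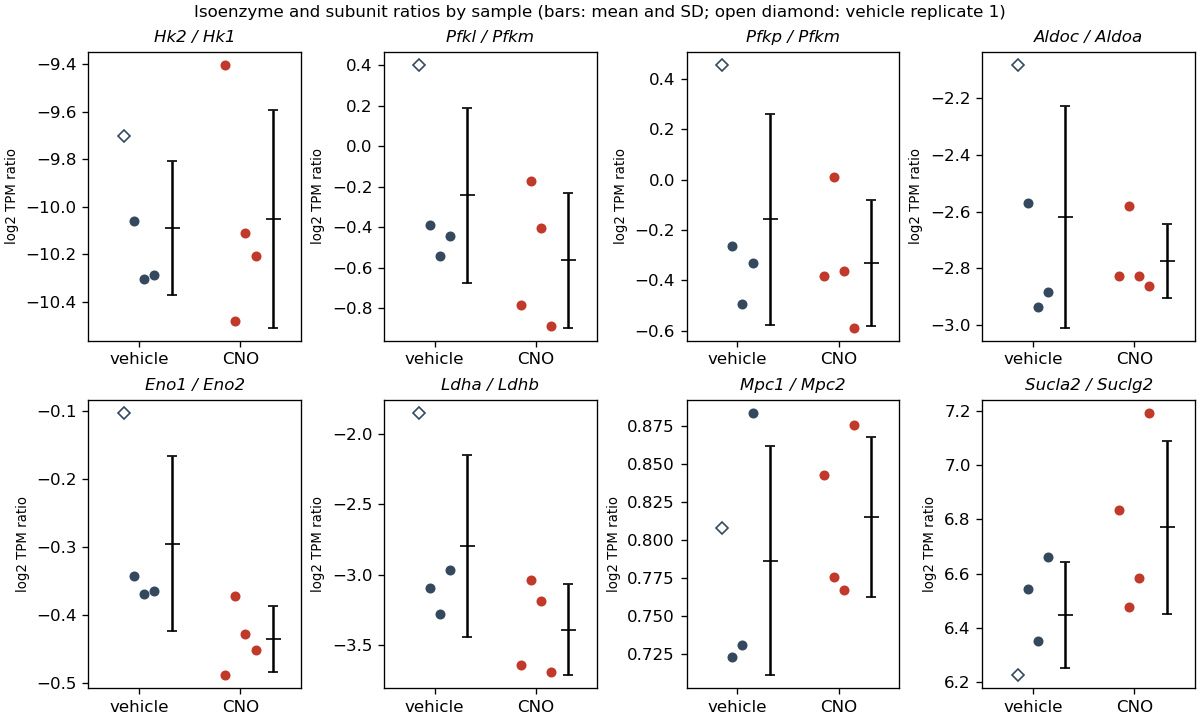
Log2 ratio of the TPM of 8 pairs of isoenzymes or partner subunits, with 1 point per sample, vehicle replicate 1 as an open diamond, and the mean and SD of each group as bars. The vertical axes differ between panels. Eno1/Eno2 is the one pair whose groups do not overlap (-0.489 to -0.373 with CNO, -0.369 to -0.102 with vehicle), and vehicle replicate 1 lies apart in most panels.

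The paired genes differ in sequence. In GENCODE transcripts the coding sequences of the pairs shared between 54.8% (Mpc1 and Mpc2) and 75.7% (Aldoc and Aldoa) of aligned bases, with 71.5% for Ldha and Ldhb and 75.1% for Eno1 and Eno2, and no pair had a stretch of 31 coding bases in common. Copies elsewhere in the genome add uncertainty. Of the 31-base stretches of Gapdh, 27.2% also occur in transcripts of other genes, and the counts of genes sharing at least 5% of them came to 14.7% of the Gapdh count. For Eno1 the values were 28.5% and 18.3%, for Ldhb 33.0% and 2.84%, and for Mpc1 12.6% and 5.05%. Pgk1 shared 54.7% of its stretches, with counts worth 0.988% of its own. How much of a member's own count came from such copies was not measured. With the counts of the copies added to each member, 34 of 39 estimates again lay above 0, with a median of 0.18.

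Several members, such as Hk1 with Hk1os on the opposite strand, overlap another annotated gene, and reads of such pairs cannot be told apart where strand is not used. A few members are neighbours in the genome. On chromosome 6, Eno2 and Tpi1 are 40913 bp apart with 1 gene between them, and Gapdh follows 347419 bp beyond Tpi1. On chromosome 9, Dlat and Sdhd are 30821 bp apart. Their estimates were 0.36 for both Eno2 and Tpi1 and 0.18 for Gapdh, and 0.17 for Dlat and 0.27 for Sdhd.

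Promoters of the lactate dehydrogenases are shown because these isoenzymes moved to opposite extremes in vehicle replicate 1, as did Pfkl and Pfkm. A further reason is that Ldha is a textbook target of the hypoxia-inducible factor. The sequences are from RefSeq (GRCm38.p6) and run from 250 bases before to 50 bases after the annotated start, 5′ to 3′ on the strand of the gene. Capitals mark the core of the hypoxia response element, ACGTG or GCGTG on either strand. The window of Ldha (ENSMUSG00000063229) is chr7:46845554-46845853 on the plus strand and that of Ldhb (ENSMUSG00000030246) chr6:142507908-142508207 on the minus strand. The genes themselves extend from 46841475 to 46855627 on chromosome 7 and from 142490249 to 142507957 on chromosome 6 in GENCODE.
Ldha: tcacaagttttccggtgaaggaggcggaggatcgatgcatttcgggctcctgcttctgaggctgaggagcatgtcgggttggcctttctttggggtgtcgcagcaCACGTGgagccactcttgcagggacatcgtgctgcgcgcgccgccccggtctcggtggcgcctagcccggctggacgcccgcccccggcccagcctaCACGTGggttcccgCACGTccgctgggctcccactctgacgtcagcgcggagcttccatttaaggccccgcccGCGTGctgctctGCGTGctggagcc
Ldhb: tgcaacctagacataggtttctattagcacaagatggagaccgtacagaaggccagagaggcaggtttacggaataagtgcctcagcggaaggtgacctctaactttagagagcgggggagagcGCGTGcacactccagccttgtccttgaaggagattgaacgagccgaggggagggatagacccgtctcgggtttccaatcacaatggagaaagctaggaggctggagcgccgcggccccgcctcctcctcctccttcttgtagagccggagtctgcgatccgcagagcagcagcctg
The core was found 7 times in the Ldha window, where each E-box CACGTG holds it on both strands, and 1 time in the Ldhb window. The table has another start of Ldha, whose window holds the core 2 times.

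Over all members with a RefSeq promoter (37 of 39, without Idh3a and Sdhc), the core stood in 27 (73.0%), against 46.7% of the 27025 genes in the table. The members' windows were richer in G and C, with a median of 62.0% against 53.3%, and the core contains CG. The E-box CACGTG, which overlaps the core, stood in Ldha, Ogdh and Pfkm (8.11%, against 8.09% of all genes). The binding site of oestrogen-related receptors, TCAAGGTCA on either strand, stood in the window of Sdhd alone (2.70%, against 0.466% of all genes). These matches describe letters in a window and no binding was measured.

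Genes around the pathways, from lists chosen by function, gave few estimates beyond the spread. Of 8 glucose and lactate transporters, 6 lay above 0 with a median log2 fold change of 0.081, among them Slc2a1 (0.21, SE 0.19), the glucose transporter of blood vessels and glia, and Slc2a3 (0.057, SE 0.099), that of neurons. Of 16 regulators of glycolysis and pyruvate dehydrogenase, 10 lay above 0 (median 0.15). Pfkfb2, which makes the activator of phosphofructokinase, was higher without overlap on the log2 CPM scale, as were 0.823% of the genes tested. In TPM its groups overlapped (log2 fold change 0.19, SE 0.09, adjusted p = 0.820 in edgeR's quasi-likelihood test). Of 15 genes of the malate-aspartate and glycerol phosphate shuttles and of the refilling of the cycle, 9 lay above 0 (median 0.073).

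Other isoenzymes of the same steps were mostly low, with a median of 10.3 TPM. Of 17 listed, 12 were tested, 5 above 0 and 7 under it (median -0.022), and Gapdhs, Pgk2, Pklr, Ldhc and Pdha2 were not tested. Adpgk, an ADP-dependent glucokinase, was higher without overlap on the log2 CPM scale, as were 0.823% of the genes tested, but overlapped in TPM (0.17, SE 0.10, unadjusted p = 0.133 from edgeR). Among 13 genes of glycogen and pentose phosphate metabolism, 9 lay above 0 (median 0.067), and the glycogen branching enzyme Gbe1 had an unadjusted p of 0.0427 (0.24, SE 0.10, adjusted p = 0.820 in edgeR). No gene of these 5 lists passed an adjusted p under 0.05 in edgeR's quasi-likelihood test. Gbe1 was the only one of the 64 tested with an unadjusted p under 0.05, a threshold passed by 4.09% of all genes tested.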

How the data were processed

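Ribosome-bound polyA RNA of S1 was sequenced paired-end on an Illumina HiSeq instrument from SMARTer Ultra Low libraries, with 4 CNO and 4 vehicle samples, each pooled from 4 brains. According to the study's methods and processing notes, FastQC, Trim Galore, STAR, Salmon and tximport were run by the authors in a Nextflow pipeline on GRCm38 (mm10). The authors deposited estimated counts per gene, not normalized, and TPM, in which counts are divided by transcript length and scaled to the same total in each sample. The column of 45706 gene identifiers was joined to the deposited gene names. Total counts per sample were 44064161 to 49413273, and intervals cover the spread between samples, while the limit of 3 counts covers counting error alone.

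The analysis used edgeR 4.0.16 (R 4.3.3) on rounded counts of the 17862 genes with at least 10 counts in at least 4 samples, with TMM normalization, the quasi-likelihood test and Benjamini-Hochberg adjustment over all genes tested. Calls required a mean TPM above 1, a fold change over 1.5 and an adjusted p under 0.05. Worded as in the study's methods, the filter would keep 17495 genes, which was an added alternative. Log2 CPM used a prior count of 2. SEs came from the fitted coefficients. Isoenzyme ratios were compared by exact permutation over 70 assignments. Alternatives used limma 3.58.1, DESeq2 1.42.0, other size factors and filters, a replicate block, covariates and left-out samples. The procedure was tested on simulated data. Positions and shared stretches of 31 bases came from GENCODE M21 on GRCm38, and promoters from RefSeq. Identity between paired genes was computed from coding sequences, since no protein table was used here. Python 3.11.15 with matplotlib 3.10.9 made the plots.

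The members, the surrounding gene lists and the alternatives with the marker index and with left-out samples were chosen with earlier results of these data known. Values in every sample are given for the isoenzyme pairs, for members whose groups do not overlap or whose unadjusted p is under 0.05, and for the highest and lowest member of each role, and fold changes for the extremes of each role. Other genes and the 2 members with the smallest p were named after their values were seen.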

Additional observations from a re-analysis of the deposited data

Results flagged for a closer look

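Samples far from the others of their group were looked for in the log2 CPM of the 39 enzymes and in the 8 isoenzyme ratios, by the gap of the highest or lowest of the 4 samples to the next one, as a fraction of the full spread of its group, set against the 95% critical value of Dixon. Of 94 groups, 18 passed, where about 4.7 would pass by chance if the measures were independent, which they are not. Vehicle replicate 1 accounted for 15 of the 18.

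Among enzymes of glycolysis, vehicle replicate 1 was low for Pfkm (gap 0.957 of the spread, at 7.92 against 8.59 to 8.62 on the log2 scale), Pkm (0.897, at 9.56 against 10.47 to 10.58), Ldhb (0.883, at 8.74 against 9.82 to 9.96), Pgam1 (0.883), Pgk1 (0.876), Aldoa (0.862) and Eno2 (0.854). It was low for the pyruvate entry genes Mpc1 (0.933, at 6.65 against 7.75 to 7.83) and Pdhb (0.896). In the TCA cycle it was low for Sdhc (0.908, at 5.21 against 6.22 to 6.32), Mdh1 (0.906), Idh3a (0.885) and Idh3b (0.874). In the same sample the log2 ratios of Eno1 to Eno2 (0.9002, at -0.102 against -0.369 to -0.343) and of Pfkl to Pfkm (0.837, at 0.40 against -0.54 to -0.39) were high. Its PV+ interneuron markers were also low (1247 TPM summed) and their part in these values was not tested.

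The other 3 concerned other samples. Aldoc was high in vehicle replicate 2 (0.842, at 7.87 against 7.46 to 7.52), Ogdh in CNO replicate 4 (0.893, at 9.10 against 8.82 to 8.85), and the log2 ratio of Aldoc to Aldoa in CNO replicate 2 (0.869, at -2.58 against -2.86 to -2.83).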

How the results depend on the processing

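No member was called under any alternative, and each alternative left all members without an adjusted p under 0.05. The number of members at an unadjusted p under 0.05 was 0 with all samples in edgeR. It was 1, Ldha (lower), with library size alone, limma on log2(TPM + 1) or limma on log2(TPM + 0.1). In these fits 4.93%, 5.36% and 5.22% of all genes tested passed, in that order. When each sample was left out in turn, the number was 0 to 1. Eno2 (higher) passed without CNO replicate 2, where 9.62% of all genes tested passed. The median log2 fold change was 0.077 to 0.28 with a sample left out, lowest without vehicle replicate 1. Leaving out CNO replicate 4 too gave -0.0094, a value lowered by the choice of samples, and the marker index as covariate -0.026. With that covariate the log2 fold changes that changed sign were Hk2 0.0232, Gpi1 -0.00399, Pfkm -0.092, Aldoa -0.0887, Aldoc -0.00598, Tpi1 -0.0358, Gapdh -0.15, Pgk1 -0.0526, Pgam1 -0.054, Ldhb -0.0154, Mpc2 -0.0121, Pdha1 -0.0235, Dlat -0.0029, Cs -0.0216, Idh3a -0.0115, Idh3b -0.0513, Idh3g -0.0733, Ogdh -0.0558, Dlst -0.13, Sucla2 -0.0114, Suclg1 -0.0476, Sdha -0.0638, Sdhb -0.0300, Sdhd -0.00565, Fh1 -0.0945, Mdh1 -0.0425 and Mdh2 -0.0259. Without vehicle replicate 1 and CNO replicate 4 they were Hk2 0.066, Gpi1 -0.031, Pfkm -0.087, Pfkp -0.0123, Aldoa -0.0812, Aldoc -0.0532, Tpi1 -0.00621, Gapdh -0.12, Pgk1 -0.00927, Pgam1 -0.0172, Pdha1 -0.00132, Cs -0.0295, Idh3g -0.0612, Ogdh -0.0779, Dlst -0.11, Suclg1 -0.00667, Sdha -0.0545, Sdhb -0.00939, Fh1 -0.0689, Mdh1 -0.0126 and Mdh2 -0.0134, with the log2 ratios Pfkl/Pfkm 0.00294, Pfkp/Pfkm 0.12 and Aldoc/Aldoa 0.0513. With library size alone they were Pfkp -0.0434 and Dlst -0.0334, with limma on log2(TPM + 1) Pfkp -0.0784, Ogdh -0.0483, Dlst -0.0496 and Sdha -0.0345, and with 0.1 added Pfkp -0.0787, Ogdh -0.0484, Dlst -0.0500 and Sdha -0.0345. With 1 sample left out, changes of sign lay in the ranges Pfkp -0.0368 to 0.0439, Aldoc -0.0138 to 0.20, Ogdh -0.00837 to 0.14, Dlst -0.0561 to 0.10 and Fh1 -0.0305 to 0.13, and for the ratios Hk2/Hk1 -0.18 to 0.18, Pfkp/Pfkm -0.29 to 0.0313 and Aldoc/Aldoa -0.26 to 0.0215. The cause was not tested.

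Deviations of same-numbered samples from their group means correlated at 0.0489, 0.00694, 0.194 and 0.210. Differently numbered samples were not compared, so whether replicate numbers pair the samples was not tested. With a replicate block 0 members were called, 34 of 39 estimates lay above 0 and the median was 0.20. Low counts limit Hk2 alone (38 to 64 counts per sample), and the replicate spread limits the others.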
